A study of Mus musculus with 8 samples.

Results

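The genes described here build, sense, import and store cholesterol and fatty acids. The set was given as 39 gene symbols, and a gene was counted as measured where a probe set of the array carries exactly that symbol in the platform annotation. By this rule 30 genes were found, through 42 of the 12422 probe sets tested, out of 8251 genes with a symbol of their own. Of the 30 genes, 16 encode enzymes of sterol synthesis and 7 enzymes that make, desaturate or elongate fatty acids. The remaining 7 are Insig1 and Srebf1, which regulate sterol synthesis, Scarb1, Npc1, Npc2 and Lipe, which import, move or release cholesterol, and Abcd2, a fatty acid transporter of the peroxisome. Pmvk, Acat1, Acat2, Insig2, Srebf2, Scap, Soat1, Acaca and Fads2 are not analysed here. Where a gene had several probe sets, its values come from the one with the highest mean over the arrays.

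The samples were cumulus cells, the granulosa-derived cells that surround the oocyte, from female C57Bl/6 mice of 3 to 4 weeks. WT mice were set against Ptger2(-/-) mice, here EP2KO, which lack the prostaglandin E2 receptor EP2. All mice received 5 IU of PMSG, a follicle-stimulating gonadotropin, and those of the later times received 5 IU of hCG, which acts like luteinising hormone, 48 h afterwards. The 0 h group had no hCG, and later groups were taken 3 h, 9 h or 14 h on, with 1 Affymetrix MG_U74Av2 array for each genotype and time, so 8 arrays in all. At 0, 3 and 9 h cumulus cells were stripped by hand from complexes released by puncture of ovarian follicles, whereas at 14 h ovulated complexes were taken from the oviduct and freed with hyaluronidase. Ovulation and the way of collection therefore cannot be told apart at 14 h. The labels do not say how many animals stood behind an array. Values are RMA signals on a log2 scale, in which a difference of 1 is a change of 2-fold, and levels of different probe sets are not compared.

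Cholesterol is made from acetyl-CoA through mevalonate, isoprenoid diphosphates, squalene and lanosterol, and the last steps turn lanosterol into cholesterol. The transcription factors of the SREBP family switch these genes on when membrane sterol is low, and the INSIG proteins hold them back in the endoplasmic reticulum when sterol is plentiful. SREBP1 also acts on genes of fatty acid synthesis. In the follicle, cumulus cells are known to supply the oocyte with products of this pathway, and after the luteinising hormone surge follicle cells take up cholesterol, in mice largely from high-density lipoprotein, and turn it into progesterone.

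The promoters of 21 of the measured genes were in the RefSeq table of 300-base windows, from 250 bases before to 50 bases after a transcript start, on build GRCm38.p6, with 27 windows in all. Each window was searched on both strands for TCACNCCAC, a form of the sterol regulatory element bound by SREBP, and for ATTGG, which reads CCAAT on the other strand and is the core of the element bound by NF-Y, a partner of SREBP at sterol genes. TCACNCCAC occurred in 1 of the 27 windows (3.70%), against 408 of all 32851 windows (1.24%). ATTGG or CCAAT occurred in 20 of the 27 (74.1%), against 37.4% of all windows. The bases before the start are printed for the 4 sterol genes with the largest called rise at 9 h among those with a single window, so that the elements can be read next to the changes described further on. They lie on the plus strand of chromosome 13 for Hmgcs1 (chr13:119690101-119690350) and Idi1 (chr13:8885356-8885605), and on the minus strand for Msmo1 (chr8:64733579-64733828) and Ebp (chrX:8193513-8193762). Capitals mark TCACNCCAC, ATTGG or CCAAT.
Hmgcs1: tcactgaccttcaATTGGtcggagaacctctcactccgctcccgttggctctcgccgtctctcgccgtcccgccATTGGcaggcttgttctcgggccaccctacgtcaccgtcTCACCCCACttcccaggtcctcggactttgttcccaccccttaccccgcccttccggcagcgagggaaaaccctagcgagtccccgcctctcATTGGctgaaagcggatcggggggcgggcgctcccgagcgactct
Msmo1: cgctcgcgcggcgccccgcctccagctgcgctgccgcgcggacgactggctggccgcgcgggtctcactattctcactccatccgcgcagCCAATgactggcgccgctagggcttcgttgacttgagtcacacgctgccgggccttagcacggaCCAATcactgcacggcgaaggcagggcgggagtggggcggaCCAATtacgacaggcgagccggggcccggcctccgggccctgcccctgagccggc
Idi1: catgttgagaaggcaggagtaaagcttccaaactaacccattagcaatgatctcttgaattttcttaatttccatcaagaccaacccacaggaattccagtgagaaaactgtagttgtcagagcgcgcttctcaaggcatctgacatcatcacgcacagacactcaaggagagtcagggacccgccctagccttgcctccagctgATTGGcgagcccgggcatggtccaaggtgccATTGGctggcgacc
Ebp: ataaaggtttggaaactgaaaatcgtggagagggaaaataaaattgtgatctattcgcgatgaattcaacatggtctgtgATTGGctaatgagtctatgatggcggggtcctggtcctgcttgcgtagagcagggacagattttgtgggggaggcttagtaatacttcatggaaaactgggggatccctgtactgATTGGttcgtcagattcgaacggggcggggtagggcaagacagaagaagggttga
The Hmgcs1 window holds the sterol element 137 bases before the start, between ATTGG copies that begin 237, 176 and 45 bases before it. In the Msmo1 promoter CCAAT begins 160, 96 and 55 bases before the start. Idi1 has ATTGG at 45 and 14 bases and Ebp at 170 and 55 bases before the start. Such a match is a description of the letters and not of a bound site.

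The arrays had medians from 7.79 to 7.89, and the standard deviation over probe sets was lowest, 1.77, for WT at 0 h and highest, 1.99, for WT at 3 h. The Ptger2 probe set had WT values of 4.95, 5.97, 5.37 and 5.33 and EP2KO values of 4.57, 4.24, 4.69 and 4.51 at 0, 3, 9 and 14 h, lower in EP2KO at each time, although whether it lies in the deleted part is not given. These Ptger2 values are low and may lie near background. Cumulus and granulosa markers were present, with means from 7.32 to 13.57 over 12 measured genes, and most changed with time. Against 0 h, 5 rose and 6 fell at 3 h, 3 rose and 8 fell at 9 h, and 2 rose and 7 fell at 14 h. Of all probe sets 42.8%, 23.0% and 28.8% were called at these times, and of these markers 91.7%, 91.7% and 75%. Their summed linear signals at 0, 3, 9 and 14 h were 43430, 43420, 26410 and 18090 for WT and 47960, 41510, 29370 and 15610 for EP2KO. Of 8 markers of oviduct epithelium 4 rose and 1 fell at 14 h against 0 h, a share called of 62.5%. Their summed linear signal was 2470 to 2760 at the 3 earlier times, 4996 in WT at 14 h and 6146 in EP2KO at 14 h, and Ovgp1, the oviductal glycoprotein, went from 7.05 to 7.76 earlier to 11.13 and 11.46. Ovgp1 had the largest rise of the 8. In WT and EP2KO, Krt18 went from 6.62 and 6.51 at 0 h to 7.22 and 8.79 at 14 h. Krt8 read 9.96 and 10.33 at 14 h but 10.23 and 10.16 at 3 h. Cdh1 read 9.37 and 9.13 at 0 h and 9.36 and 9.13 at 14 h, and Foxj1 8.85 and 8.73 against 8.39 and 8.36. Of 14 leukocyte markers 6 rose at 14 h, or 42.9% where 13.5% of all probe sets were called higher. The leukocyte sums were 2529 to 3475 earlier and 4141 and 5144 at 14 h. Tyrobp, a myeloid adaptor, went from 6.85 to 7.23 on the earlier arrays to 7.85 and 8.80, and Lyz2, a macrophage lysozyme, from 5.27 to 6.07 to 6.56 and 7.65, while Ptprc, the common leukocyte antigen, was near the low end of the array throughout (5.53 to 5.86). Of 3 erythroid markers 2 rose at 3 h and at 9 h and 1 at 14 h, so 66.7%, 66.7% and 33.3% of these few genes. The erythroid sums were 1332, 5628, 12340 and 2948 in WT and 1723, 2645, 2463 and 3297 in EP2KO, with Hba-a1, an alpha globin, at 9.79, 12.21, 13.39 and 10.91 in WT. The 3′ minus 5′ difference of the Gapdh control probe sets, a measure of RNA length after amplification, was 2.87 and 2.82 at 14 h against 0.80 to 1.86 before, while the Actb controls gave 1.61 and 1.37 at 14 h, close to their range of 0.69 to 1.54 on the earlier arrays. The part of these markers and of RNA length in the results was not tested. Adipocyte markers, which could carry lipid genes, had sums of 1245 to 1490 over all arrays, with Adipoq, their defining gene, at 5.06 to 5.63. Cidec was as low, at 4.91 to 5.12, while Retn read 7.56 to 8.13 and Lep 9.71 to 9.93. Of 5 adipocyte markers 1, Fabp4, rose at 9 and 14 h, a share of 20%, where 10.9% and 13.5% of all probe sets were called higher. A count of 1 of 5 genes is too small to set apart from these shares. Fabp4 went from 6.71 and 6.74 at 0 h to 7.49 and 7.29 at 14 h. In bulk RNA, fewer cells of a type and less RNA per cell cannot be told apart.

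Most sterol synthesis genes were higher after hCG, highest at 9 h, and lower again in the ovulated complexes at 14 h. Members of the set were called changed where limma's adjusted p, over all 12422 probe sets, was under 0.05. At 3 h against 0 h 18 of 30 genes were called, 13 higher and 5 lower, so 60% where 42.8% of all probe sets were called. The 43.3% called higher stood against 17.4% of all probe sets and the 16.7% called lower against 25.4%. The median change of the 30 genes was 0.40, and −0.14 over all probe sets. With each array centred on its median the split was 16 higher and 3 lower (84.2% higher), and after quantile normalization 8 and 5 (61.5% higher), against 72.2% as deposited. Without WT at 0 h 6 genes were called and without WT at 3 h 7, with 12 and 11 of the 18 calls lost. Hmgcs1, Idi1, Cyp51 and Abcd2 were called under every alternative in which they were tested.

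At 9 h against 0 h 19 of 30 genes were called, 18 higher and 1 lower, so 63.3% where 23.0% of all probe sets were called. The share called higher was 60%, against 10.9% of all probe sets, and the median change was 0.53 against −0.08. Without WT at 0 h 10 genes were called at 9 h. Those 10, Hmgcs1, Mvd, Idi1, Sqle, Cyp51, Msmo1, Ebp, Scd1, Elovl6 and Abcd2, were called under every alternative in which they were tested. From 3 to 9 h 8 genes rose, so 26.7% where 19.4% of all probe sets were called and 7.59% were higher. By the probe set with the highest mean no gene of the set fell by limma's adjusted p from 3 to 9 h, although another probe set of Scd1 did, and at an unadjusted p under 0.05 1 did, Cyp51. The count from 3 to 9 h was 5 without WT at 3 h and 4 without WT at 9 h, and Mvd, Msmo1, Scd1 and Elovl6 were called under every alternative.

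Across ovulation, from 9 to 14 h, 16 of 30 genes were called, 2 higher and 14 lower, so 53.3% where 20.1% of all probe sets were called. The 46.7% called lower stood against 10.1% of all probe sets, and the median change was −0.44 against 0.03. Of the 16 calls 11 held under every alternative, those of Hmgcs1, Mvd, Idi1, Fdft1, Sqle, Lss, Cyp51, Msmo1, Nsdhl, Npc2 and Fasn. At 14 h against 0 h 14 genes were called, 9 higher and 5 lower, so 46.7% where 28.8% of all probe sets were called, 13.5% higher and 15.2% lower. The median change at 14 h against 0 h was 0.13 over the set and −0.06 over all probe sets. Without WT at 0 h 9 genes were called at 14 h, and Sqle, Nsdhl, Npc2, Fasn, Scd1, Elovl6 and Abcd2 were called under every alternative in which they were tested. All 3 contrasts with 0 h share the 0 h arrays, and the 9 h arrays enter 3 of the 5 time contrasts, so these counts are not independent of each other.

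By the mean of both genotypes, 11 of the 16 sterol genes had their highest value at 9 h, 4 at 3 h and 1 at 14 h. The lowest value fell at 0 h for 7 of them and at 14 h for the other 9. Among the sterol genes 10 rose at 3 h, 13 at 9 h and 5 from 3 to 9 h, and 13 fell from 9 to 14 h. Of all probe sets 17.4% were called higher at 3 h, 10.9% at 9 h and 7.59% from 3 to 9 h. From 9 to 14 h 10.1% were called lower. These shares are also the comparison for the counts of each branch of sterol synthesis below. By the probe set with the highest mean none of the 16 fell at 3 or 9 h against 0 h by limma, at an unadjusted p under 0.05 either, although a dim probe set of Fdps fell at 3 h. The median change of the 16 genes was 0.53 at 3 h, 0.79 at 9 h and −0.20 at 14 h against 0 h, and −0.97 from 9 to 14 h.

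**Figure D1:**
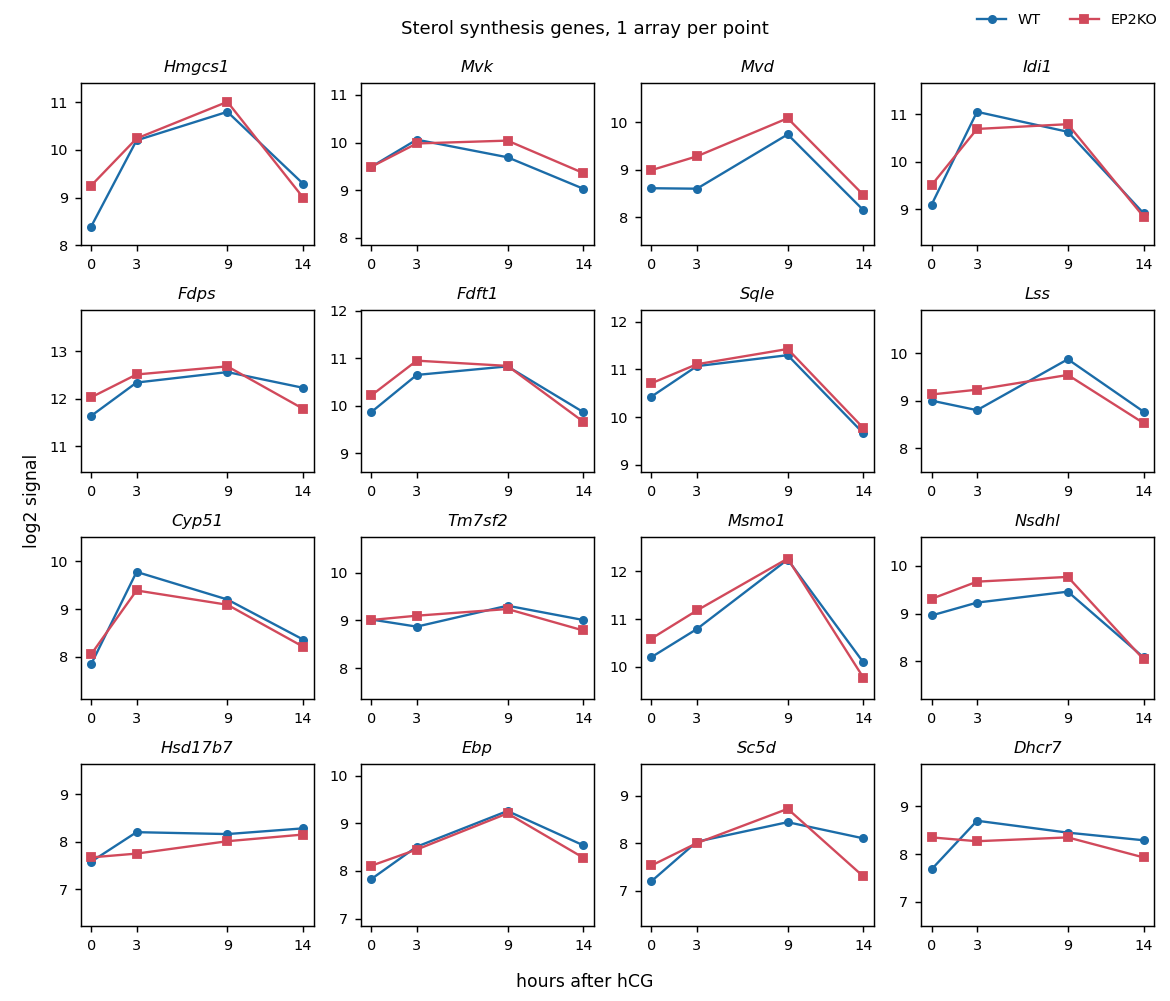
Log2 signal of the 16 sterol synthesis genes against hours after hCG, with 1 array per point, WT as circles and EP2KO as squares. Each panel spans the same height on the log2 axis. Msmo1 climbs to 12.25 and 12.27 at 9 h and drops to 10.09 and 9.77 at 14 h, while Tm7sf2 stays between 8.79 and 9.31.

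The mevalonate branch, from acetyl units to farnesyl diphosphate, was measured through 5 genes, of which 4 rose at 3 h, 4 rose at 9 h and all 5 fell from 9 to 14 h. Hmgcs1, the HMG-CoA synthase that makes the substrate of HMG-CoA reductase, had WT values of 8.39, 10.20, 10.80 and 9.29 and EP2KO values of 9.25, 10.24, 11.01 and 9.00 at 0, 3, 9 and 14 h. Both 3 h and both 9 h arrays lay above all 0 h and 14 h arrays. The change at 3 h was 1.40 ± 0.22 (limma's SE from the fit to all 8 arrays, limma adjusted p = 0.00105). At 9 h it was 2.09 ± 0.22 (adjusted p = 0.00013), or 4.24-fold, and from 9 to 14 h Hmgcs1 fell by 1.76.

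Idi1, which converts isopentenyl diphosphate to its isomer, had WT values of 9.10, 11.05, 10.63 and 8.92 and EP2KO values of 9.51, 10.69, 10.79 and 8.85. It reached its plateau by 3 h, with a rise of 1.57 ± 0.17 (adjusted p = 1.6e-04), was 1.41 above 0 h at 9 h, and fell by 1.83 from 9 to 14 h. The WT array was highest at 3 h and the EP2KO array at 9 h. Mvd, the decarboxylase that makes isopentenyl diphosphate, had WT values of 8.61, 8.60, 9.74 and 8.15 and EP2KO values of 8.99, 9.28, 10.08 and 8.47. Mvd was not called at 3 h (0.14 ± 0.13, adjusted p = 0.39), where it moved by −0.01 in WT and 0.29 in EP2KO. It was called higher later, by 1.11 ± 0.13 at 9 h against 0 h and by 0.97 from 3 to 9 h. At 14 h Mvd lay 0.49 below 0 h (adjusted p = 0.016).

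Fdps, the farnesyl diphosphate synthase, had WT values of 11.64, 12.34, 12.56 and 12.23 and EP2KO values of 12.03, 12.51, 12.68 and 11.79. It rose by 0.59 ± 0.18 at 3 h and 0.79 ± 0.18 at 9 h, and fell by 0.61 from 9 to 14 h. In WT the 14 h value stayed above the 0 h value and in EP2KO it did not. Mvk, the mevalonate kinase, had WT values of 9.49, 10.06, 9.69 and 9.03 and EP2KO values of 9.49, 9.98, 10.04 and 9.36. Mvk rose by 0.53 ± 0.14 at 3 h, stood at 0.38 (adjusted p = 0.08) at 9 h and fell by 0.67 from 9 to 14 h.

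The 3 genes from farnesyl diphosphate to lanosterol all rose at 9 h and all fell from 9 to 14 h, and 2 of them rose at 3 h. Sqle, the squalene epoxidase and a rate-limiting step of the pathway, had WT values of 10.43, 11.07, 11.30 and 9.66 and EP2KO values of 10.71, 11.11, 11.43 and 9.77. Its 14 h arrays were the lowest of all and its groups at 0, 9 and 14 h did not overlap. Sqle rose by 0.52 ± 0.12 at 3 h and 0.80 ± 0.12 at 9 h, fell by 1.65 from 9 to 14 h (adjusted p = 1.39e-05), and ended 0.86 below 0 h (adjusted p = 3.4e-04).

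Fdft1, the squalene synthase, had WT values of 9.87, 10.65, 10.83 and 9.87 and EP2KO values of 10.22, 10.95, 10.84 and 9.67. It had risen by 0.76 ± 0.15 at 3 h (adjusted p = 0.00357), stood 0.79 above 0 h at 9 h, and fell by 1.07 from 9 to 14 h. Lss, the lanosterol synthase, had WT values of 9.00, 8.80, 9.87 and 8.77 and EP2KO values of 9.13, 9.23, 9.54 and 8.53. Like Mvd it was not called at 3 h (−0.05 ± 0.17, adjusted p = 0.83) and was higher at 9 h, by 0.64 against 0 h (adjusted p = 0.024) and by 0.69 against 3 h, then fell by 1.06.

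Between lanosterol and cholesterol 8 genes were measured, of which 4 rose at 3 h, 6 rose at 9 h and 5 fell from 9 to 14 h. Cyp51, the lanosterol demethylase at the head of these steps, had WT values of 7.84, 9.78, 9.20 and 8.36 and EP2KO values of 8.05, 9.39, 9.09 and 8.21. It had the largest rise of the set at 3 h, 1.64 ± 0.15 (adjusted p = 6.59e-05) or 3.12-fold, and stood at 1.20 at 9 h. In both genotypes the 3 h array was the highest, and from 9 to 14 h Cyp51 fell by 0.86.

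Msmo1, the oxidase that removes the methyl groups at carbon 4 of the sterol together with Nsdhl and Hsd17b7, had WT values of 10.20, 10.79, 12.25 and 10.09 and EP2KO values of 10.59, 11.18, 12.27 and 9.77. Its 9 h arrays stood apart from all others. The rise was 0.59 ± 0.17 at 3 h and 1.87 ± 0.17 at 9 h (adjusted p = 6.14e-05). Across ovulation Msmo1 fell by 2.33 ± 0.17, or 5.03-fold (adjusted p = 1.53e-05). Among the 30 genes of the set, each read from its brightest probe set, this was the largest fall in that interval. Nsdhl, a sterol dehydrogenase, had WT values of 8.96, 9.23, 9.46 and 8.08 and EP2KO values of 9.31, 9.67, 9.77 and 8.04. Nsdhl stood at 0.32 at 3 h (adjusted p = 0.087) and 0.48 ± 0.14 at 9 h (adjusted p = 0.03), and then fell by 1.56 from 9 to 14 h, to 1.08 below 0 h. Hsd17b7, the ketoreductase of the same complex, had WT values of 7.58, 8.20, 8.16 and 8.28 and EP2KO values of 7.67, 7.75, 8.01 and 8.15, and unlike its partners it was called higher at 14 h against 0 h (0.59 ± 0.14, adjusted p = 0.0094).

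Ebp, a sterol isomerase, had WT values of 7.83, 8.51, 9.26 and 8.54 and EP2KO values of 8.11, 8.45, 9.21 and 8.28. It climbed at each step to 9 h, by 0.51 at 3 h and 1.27 ± 0.14 at 9 h against 0 h, fell by 0.83 from 9 to 14 h, and remained 0.44 above 0 h at 14 h (adjusted p = 0.039). Sc5d, the sterol C5 desaturase, had WT values of 7.20, 8.03, 8.44 and 8.10 and EP2KO values of 7.53, 8.0, 8.72 and 7.30. It rose by 0.65 ± 0.23 at 3 h and 1.22 ± 0.23 at 9 h, and from 9 to 14 h it moved by −0.34 in WT and −1.42 in EP2KO. The mean fall of Sc5d was 0.88 (adjusted p = 0.02).

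Dhcr7, which reduces the last intermediate to cholesterol, had WT values of 7.68, 8.70, 8.45 and 8.29 and EP2KO values of 8.35, 8.27, 8.35 and 7.93. It was not called in any of the 5 time contrasts, and its changes differed in size between the genotypes, with 1.02 in WT and −0.08 in EP2KO at 3 h. Tm7sf2, a sterol reductase, stayed between 8.79 and 9.31 on all 8 arrays and was not called in any time contrast either.

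The regulators of the pathway were measured through 2 members. Srebf1, which encodes SREBP1, had WT values of 9.97, 10.48, 10.64 and 10.74 and EP2KO values of 10.19, 10.65, 10.41 and 10.71. Each array after hCG lay above both 0 h arrays, and Srebf1 was called higher at 3 h (0.49 ± 0.14, adjusted p = 0.018), 9 h (0.45, adjusted p = 0.04) and 14 h (0.65, adjusted p = 0.0049). Of the 6 alternatives other than leaving out an array, the Srebf1 call held under 4 at 3 h, 3 at 9 h and 6 at 14 h. Leaving out single arrays ended the call in some fits at each of these times. Insig1, a usual SREBP target whose product retains SREBP, had WT values of 5.09, 4.54, 4.55 and 4.60 and EP2KO values of 4.68, 4.42, 4.47 and 4.61. It was called lower at 3 h (−0.41 ± 0.13, adjusted p = 0.031) and not at 9 h (−0.38, adjusted p = 0.065). The Insig1 values are low and may lie near background, and its 3 h call ended under 8 of the alternatives tried.

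Genes that bring in, move and release cholesterol were measured through 4 members, of which 1 rose at 3 h, 1 at 9 h and 3 at 14 h against 0 h, and none fell in these by limma at an adjusted p under 0.05. Of all probe sets 17.4%, 10.9% and 13.5% were called higher at these times. A count of 1 of 4 genes is too small to set apart from these shares. At an unadjusted p under 0.05 Npc1 was lower at 3 and 9 h. Scarb1, the receptor that takes cholesteryl ester from high-density lipoprotein, had WT values of 10.91, 12.14, 11.62 and 12.12 and EP2KO values of 11.35, 11.55, 11.22 and 11.80. It was called higher at 3 h (0.72 ± 0.21, adjusted p = 0.02), not at 9 h (0.29, adjusted p = 0.34), and again at 14 h (0.83, adjusted p = 0.012). The WT array gained 1.23 at 3 h and the EP2KO array 0.20.

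Npc2, the lysosomal protein that hands free cholesterol to Npc1, had WT values of 10.43, 11, 11.12 and 11.92 and EP2KO values of 10.73, 10.86, 11.19 and 12.13. Unlike the sterol enzymes that fell, it had its highest values on both 14 h arrays. Npc2 rose by 0.58 ± 0.13 at 9 h and 1.45 ± 0.13 at 14 h (adjusted p = 2.35e-05) against 0 h, and by 0.87 from 9 to 14 h. Npc1, the membrane protein of lysosomal cholesterol export, had WT values of 10.14, 9.96, 9.92 and 10.29 and EP2KO values of 10.29, 9.78, 9.84 and 10.47. It was called only from 9 to 14 h, higher by 0.50 ± 0.13 (adjusted p = 0.02), and its 14 h values were close to those at 0 h. Lipe, the hormone-sensitive lipase that frees cholesterol from its esters in steroid-making cells, had WT values of 7.49, 7.40, 7.82 and 7.98 and EP2KO values of 7.41, 7.64, 7.75 and 7.96, and rose by 0.52 ± 0.13 at 14 h against 0 h. These rises at 14 h came with those of the oviduct and leukocyte markers given above, some of whose cells also express lysosomal genes, and the part of those cells in them was not tested.

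**Figure D2:**
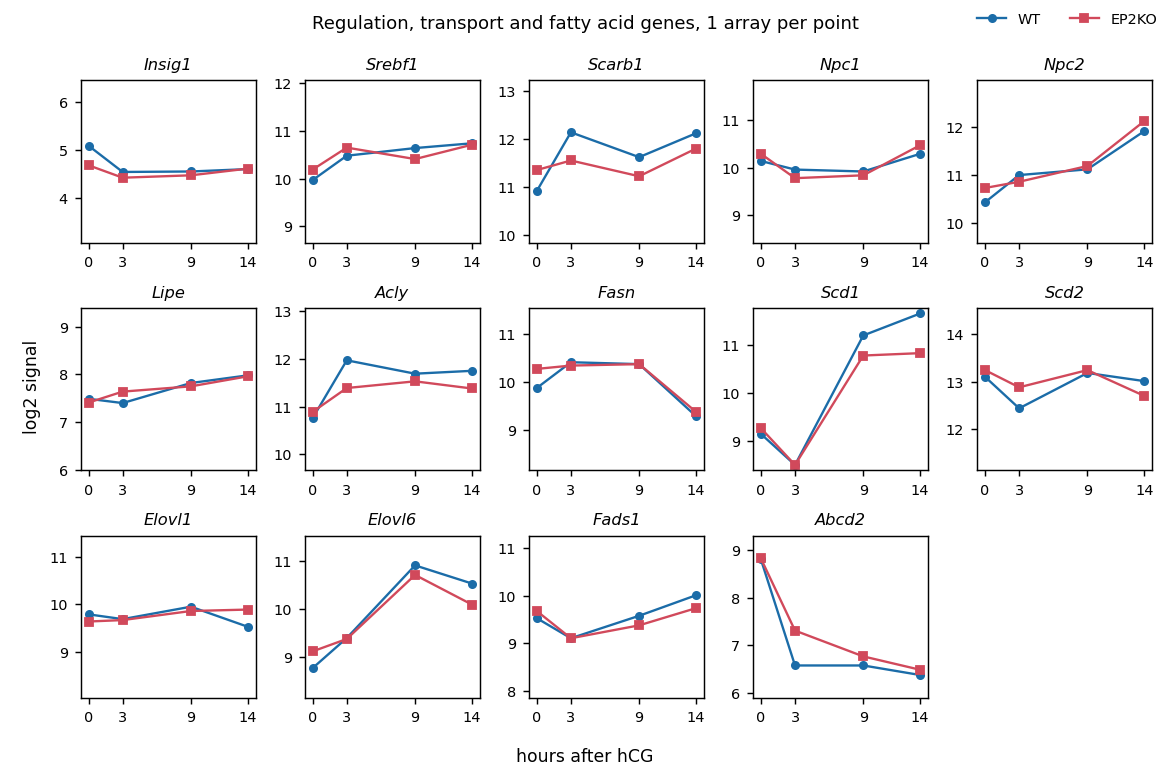
Log2 signal of the 14 measured genes of regulation, cholesterol transport and fatty acids against hours after hCG, with 1 array per point, WT as circles and EP2KO as squares. Each panel spans the same height on the log2 axis. Scd1 dips at 3 h to 8.49 in both genotypes and reaches 11.66 and 10.83 at 14 h, and Abcd2 drops from 8.80 and 8.82 at 0 h to 6.38 and 6.49.

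Fatty acid genes did not follow 1 course. Of the 7 measured, 1 rose and 3 fell at 3 h, 3 rose at 9 h, and 3 rose and 1 fell at 14 h, each against 0 h. Of all probe sets 17.4%, 10.9% and 13.5% were called higher and 25.4%, 12.1% and 15.2% lower at these times. Acly, which splits citrate into the acetyl-CoA used for both sterols and fatty acids, had WT values of 10.76, 11.97, 11.69 and 11.75 and EP2KO values of 10.89, 11.39, 11.53 and 11.38. All 6 arrays after hCG lay above both 0 h arrays, and the rise was 0.86 ± 0.16 (adjusted p = 0.0028) at 3 h, 0.79 at 9 h and 0.74 at 14 h. Fasn, the fatty acid synthase, had WT values of 9.87, 10.41, 10.37 and 9.28 and EP2KO values of 10.27, 10.34, 10.37 and 9.37. Before ovulation Fasn was not called (0.31 at 3 h and 0.30 at 9 h), and from 9 to 14 h it fell by 1.05 ± 0.14 (adjusted p = 4.1e-04), to 0.75 below 0 h.

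By the probe set with the highest mean, the desaturases Scd1, Scd2 and Fads1 fell at 3 h, and Scd1 and Elovl6 rose by 9 h. The other 2 Scd1 probe sets were not called at 3 h. Scd1, the stearoyl-CoA desaturase that makes oleate, had WT values of 9.14, 8.49, 11.20 and 11.66 and EP2KO values of 9.26, 8.49, 10.78 and 10.83. It fell by 0.71 ± 0.20 at 3 h (adjusted p = 0.018) and then rose by 2.50 ± 0.20, or 5.66-fold, from 3 to 9 h (adjusted p = 1.2e-04). At 9 and 14 h Scd1 stood 1.79 and 2.05 above 0 h, and from 9 to 14 h it was not called. Elovl6, which lengthens palmitate to stearate, the substrate of Scd1, had WT values of 8.76, 9.39, 10.91 and 10.53 and EP2KO values of 9.11, 9.37, 10.71 and 10.09. It did not pass at 3 h (0.45 ± 0.17, adjusted p = 0.056), stood 1.88 ± 0.17 higher at 9 h (adjusted p = 5.66e-05) and 1.38 higher at 14 h, and its 9 h arrays were the highest.

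Scd2, a second stearoyl-CoA desaturase, had WT values of 13.10, 12.44, 13.18 and 13.01 and EP2KO values of 13.24, 12.88, 13.24 and 12.70. It fell by 0.51 ± 0.16 at 3 h (adjusted p = 0.029) and rose by 0.55 from 3 to 9 h, back to within 0.04 of its 0 h mean. Fads1, the delta-5 desaturase of polyunsaturated fatty acids, had WT values of 9.53, 9.11, 9.58 and 10.01 and EP2KO values of 9.68, 9.11, 9.38 and 9.74, and fell at 3 h by 0.50 ± 0.13 (adjusted p = 0.015). The 3 h arrays were the lowest for Scd1, Scd2 and Fads1 in WT and for Scd1 and Fads1 in EP2KO. Elovl1, an elongase of very long chains, stayed between 9.53 and 9.95 and was not called in any time contrast.

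Abcd2, which carries very long chain acyl-CoA into the peroxisome, had the largest fall of the set at each time against 0 h. It had WT values of 8.80, 6.58, 6.58 and 6.38 and EP2KO values of 8.82, 7.31, 6.77 and 6.49. Both 0 h arrays lay above all 6 later ones. The change was −1.87 ± 0.17 (adjusted p = 6.43e-05) at 3 h, −2.14 (adjusted p = 2.0e-05) at 9 h and −2.38 (adjusted p = 3.53e-06), or 5.19-fold lower, at 14 h, and after 3 h no further change was called. The values after hCG are low and may lie near background.

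**Figure D3:**
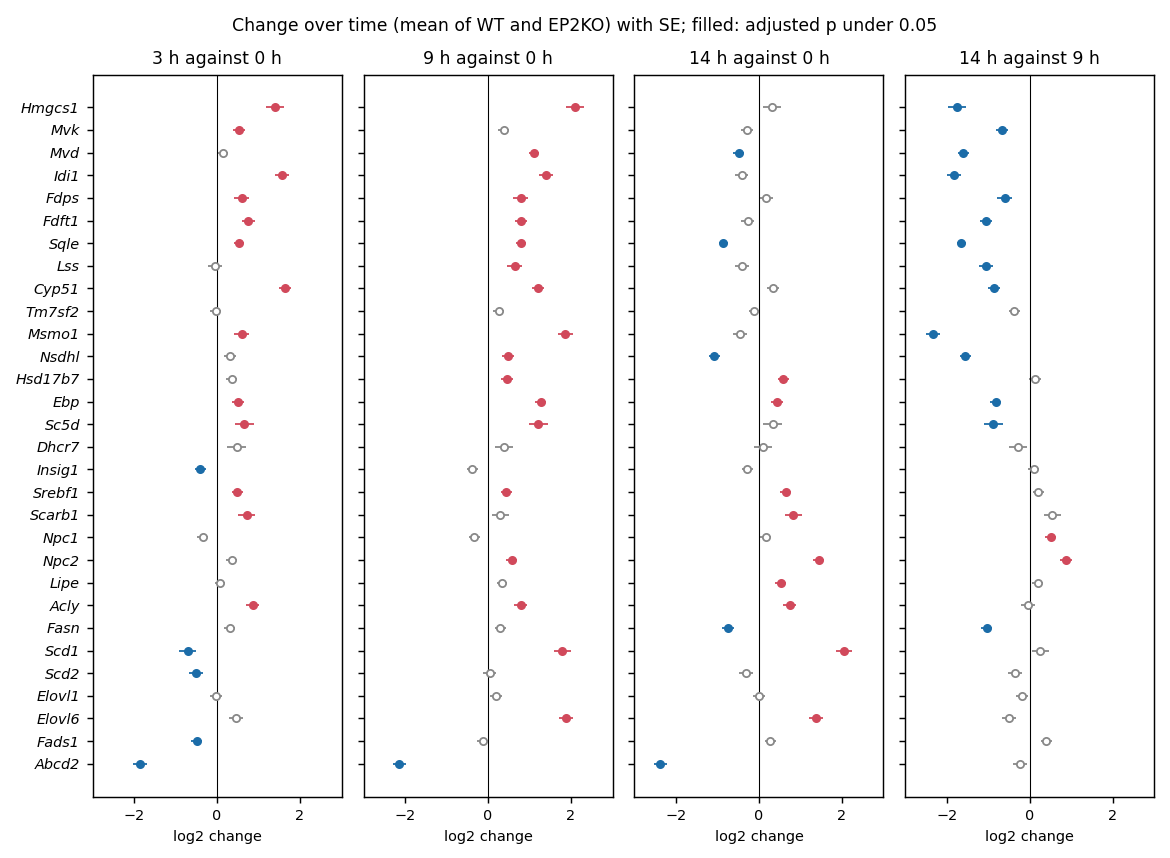
Log2 change with its standard error for each of the 30 genes in 4 time contrasts, as the mean of WT and EP2KO, with filled points where limma's adjusted p was under 0.05 (red higher, blue lower) and open points otherwise. At 9 h 13 of the 16 sterol genes, listed from Hmgcs1 to Dhcr7, are filled to the right of 0, and from 9 to 14 h 13 are filled to the left.

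For several genes another probe set gave a different call. For Scd1, a probe set at lower signal (94058_r_at) fell by 0.57 ± 0.15 at 9 h against 0 h (adjusted p = 0.022), opposite to the 1.79 of the brightest probe set and the 1.94 of the other one (94057_g_at), and from 3 to 9 h it fell by 0.61 (adjusted p = 0.02) where they rose by 2.50 and 2.17. That probe set had WT values of 8.03, 8.23, 7.34 and 7.94 and EP2KO values of 7.79, 7.66, 7.34 and 7.92. At 3 h against 0 h neither 94058_r_at (0.04) nor 94057_g_at (−0.23) was called, where the brightest Scd1 probe set fell by 0.71. For Fdps, the dim probe set 162217_r_at fell by 0.43 at 3 h (adjusted p = 0.027) where 160424_f_at and 99098_at rose by 0.59 and 0.78, and at 14 h against 0 h 99098_at was called lower (−0.81, adjusted p = 0.01) where 160424_f_at was not (0.18). At 9 h 99098_at was not called (0.56, limma adjusted p = 0.062), where 160424_f_at was (0.79).

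For Mvk, 95632_f_at was not called at 3 h (0.30, limma adjusted p = 0.12) and was called higher at 9 h (0.62, adjusted p = 0.012). The probe set with the highest mean, 95633_r_at, was called at 3 h and not at 9 h. At 14 h against 0 h 95632_f_at gave a fall of 1.81 ± 0.14 (adjusted p = 8.98e-06), while 95633_r_at was not called (−0.30), and from 9 to 14 h the falls were 2.43 and 0.67. The difference between these Mvk probe sets is larger than either standard error. For Elovl6, 94418_at gave 0.30 at 14 h against 0 h, not called, against 1.38 for 103665_at, and from 9 to 14 h it fell by 1.42 where 103665_at was not called (−0.50). Both Elovl6 probe sets rose at 9 h, by 1.72 and 1.88. For Sc5d, 102768_i_at was not called at 3 h (−0.13) and was called higher from 3 to 9 h (1.21), where 102769_f_at was called higher at 3 h (0.65) and not from 3 to 9 h (0.57). For Scd2, 162077_f_at fell by 0.67 from 9 to 14 h (adjusted p = 0.012), where 95758_at was not called. For Nsdhl, 98630_at was not called at 9 h (0.07). All 3 Nsdhl probe sets fell at 14 h against 0 h, and both Scd2 probe sets fell at 3 h. With a gene's probe sets averaged, Fdps, Sc5d and Scd1 were no longer called at 3 h, and Fdps and Nsdhl no longer at 9 h.

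Neighbouring pathways were read from 6 lists, drawn up by function. The share of a list that was called is given beside that of all probe sets, which was 42.8% at 3 h, 23.0% at 9 h and 28.8% at 14 h against 0 h, and 20.1% from 9 to 14 h. Of 16 measured genes of cholesterol uptake, transport and steroid use, 6 rose and 3 fell at 3 h, 8 rose and 2 fell at 9 h, and 8 rose at 14 h, each against 0 h, and from 9 to 14 h 5 rose and 2 fell. The shares called were 56.2%, 62.5%, 50% and 43.8%. Star, which carries cholesterol into the mitochondrion, had WT values of 6.72, 11.22, 10.18 and 8.96 and EP2KO values of 6.29, 10.01, 9.73 and 8.30, and rose by 4.11 ± 0.18 at 3 h. Fdx1, the electron donor of the side-chain cleavage enzyme, rose by 2.50 at 3 h and 2.65 at 9 h. Cyp11a1, that enzyme itself, had WT values of 8.57, 9.76, 10.30 and 11.89 and EP2KO values of 9.31, 9.48, 9.63 and 12.21, and was 1.03 higher at 9 h and 3.11 higher at 14 h. Cyp11a1 and Star thus moved in opposite directions from 9 to 14 h, by 2.09 and −1.33, both called. Cav1, the caveolin of cholesterol-rich membrane, rose by 3.91 at 14 h, of which 1.88 came from 9 to 14 h and 1.5 from 3 to 9 h.

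Of 11 measured genes of cholesterol efflux, 3 rose and 2 fell at 3 h, 2 rose and 1 fell at 9 h, and 4 rose and 1 fell at 14 h against 0 h, and from 9 to 14 h 4 rose and 1 fell. The shares called were 45.5%, 27.3%, 45.5% and 45.5%, the first 2 near those of all probe sets. Abca1, the exporter of cholesterol and a target of the sterol-activated receptor LXR, had WT values of 8.32, 9.60, 8.98 and 11.41 and EP2KO values of 8.19, 8.85, 8.51 and 10.70. It rose by 0.97 ± 0.16 at 3 h and by 2.31 ± 0.16 from 9 to 14 h (adjusted p = 9.7e-06), the interval in which 13 of the 16 sterol synthesis genes fell. Apoe, a cholesterol-carrying apolipoprotein, had WT values of 8.35, 9.04, 8.17 and 9.93 and EP2KO values of 8.75, 8.57, 8.41 and 10.91, and rose by 2.13 from 9 to 14 h. Macrophages also express Apoe and Abca1, and 6 of 14 leukocyte markers rose at 14 h as given above. Their part in these rises was not tested.

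Of 7 measured genes of sterol regulation and side steps, 5 rose and 1 fell at 3 h, 2 rose at 9 h, and 1 rose and 2 fell at 14 h against 0 h, and from 9 to 14 h 3 fell, with shares called of 85.7%, 28.6%, 42.9% and 42.9% of these few genes. Lpin1, a phosphatidate phosphatase, had WT values of 8.31, 7.79, 9.52 and 8.50 and EP2KO values of 8.63, 8.40, 9.70 and 8.02, with a rise of 1.52 from 3 to 9 h and a fall of 1.35 from 9 to 14 h. Among 17 other genes of fatty acid synthesis and activation, 4 rose and 2 fell at 3 h, 4 rose and 4 fell at 9 h, and 7 rose and 2 fell at 14 h, with shares called of 35.3%, 47.1% and 52.9%. Me1, the malic enzyme that supplies NADPH, rose by 1.46, 2.08 and 3.63 at 3, 9 and 14 h, and Acsl4, which activates arachidonate, by 2.50, 3.14 and 3.74.

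Of 23 measured genes of fatty acid oxidation, 8 rose and 2 fell at 3 h, 5 rose and 3 fell at 9 h, and 8 rose and 2 fell at 14 h. The shares called were 43.5%, 34.8% and 43.5%, the first near that of all probe sets. Of 16 genes of triglyceride and lipid droplets, 2 rose and 3 fell at 3 h, 2 rose and 1 fell at 9 h, and 4 rose and 3 fell at 14 h. The shares called were 31.2%, 18.8% and 43.8%, the first 2 below those of all probe sets. In that list Gpam, the first acyltransferase of glycerolipid synthesis, fell by 1.22 at 3 h and rose by 1.48 from 3 to 9 h, as did Scd1. Pparg, a lipid-responsive nuclear receptor, had WT values of 8.86, 10.33, 7.98 and 7.02 and EP2KO values of 9.39, 10.42, 8.73 and 6.98, and fell by 2.02 from 3 to 9 h after a rise of 1.25 at 3 h.

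Loss of EP2 was asked about in a comparison of all 4 EP2KO arrays with all 4 WT arrays, with time as a term. By limma no member of the set, and no probe set of the 12422 (0%), differed at an adjusted p under 0.05. At an unadjusted p under 0.05 there were 3 of the 30 genes, against 642 of all probe sets (5.17%). These were Mvd, higher in EP2KO by 0.43 ± 0.09 (adjusted p = 0.58), Nsdhl, by 0.27 ± 0.10 (adjusted p = 0.94), and Abcd2, by 0.26 ± 0.12 (adjusted p = 0.95). Mvd was higher in EP2KO at each of the 4 times, by 0.38, 0.68, 0.34 and 0.32.

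A departure of EP2KO at 14 h from its difference at the earlier times was fitted as an interaction. It was called for no member by limma, and for 10 of all probe sets (0.0805%), and at an unadjusted p under 0.05 for 7 of the 30 genes against 865 of all (6.96%). By the probe set with the highest mean the lowest was Sc5d, at −0.99 ± 0.22 (adjusted p = 0.22), followed by Scd1 at −0.73 ± 0.24 (adjusted p = 0.54), Fdps at −0.67, Hmgcs1 at −0.66, Msmo1 at −0.59 and Scd2 at −0.52. Other probe sets of Nsdhl (93868_at, −1.07, limma adjusted p = 0.18) and Scd1 (94057_g_at, −1.04, limma adjusted p = 0.44) lay lower and were not called either. The brightest Nsdhl probe set gave −0.41 and 98630_at −0.26, and Scd1's 94058_r_at gave 0.25. Elovl1 was at 0.45 in the other direction.

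At single times there was 1 array per genotype and so no test. By the probe set with the highest mean no member differed by 1 or more on the log2 scale at any time, and of the other probe sets 1 did, Scd1's 94057_g_at at 14 h (−1.02), where 0.0403%, 0.467%, 0.129% and 0.217% of all probe sets did at 0, 3, 9 and 14 h. At 0 h, before hCG, 25 of the 30 genes read higher in EP2KO and 4 lower, with a median difference of 0.25, while 45.2% of all probe sets read higher and their median was −0.02. Of the 16 sterol genes 14 read higher in EP2KO at 0 h, with a median of 0.34, and the largest differences were those of Hmgcs1 (0.86) and Dhcr7 (0.67). At 14 h 9 genes read higher and 21 lower, with a median of −0.18, while 53.1% of all probe sets read higher. Of the sterol genes 3 read higher and 13 lower at 14 h, with a median of −0.21. At 3 and 9 h the members were divided, with 13 higher and 15 lower at 3 h and 13 higher and 16 lower at 9 h. The changes from 0 h also use these 0 h arrays. The sterol genes' median change at 3 h was 0.66 in WT and 0.44 in EP2KO, and at 9 h 0.94 and 0.69. These differences between single arrays were not tested.

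**Figure D4:**
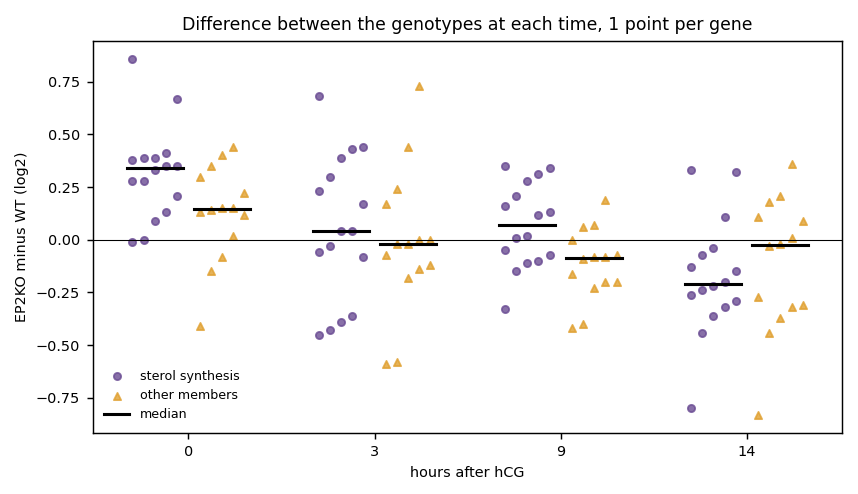
Difference of EP2KO from WT (log2) against hours after hCG (0, 3, 9 and 14), with 1 point per gene from 1 array of each genotype, circles for the 16 sterol synthesis genes, triangles for the other 14 members and a bar for each median. The sterol genes lie mostly above 0 at 0 h (median 0.34) and mostly below 0 at 14 h (median −0.21).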

How the data were processed

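RNA of cumulus cells (100 ng) was amplified in 2 rounds with oligo(dT) and hybridised to 8 Affymetrix arrays, 1 per genotype and time. Per the submitters' processing notes the authors made the signals with RMA (version not stated). The deposited log2 values, given to 2 decimals, were analysed unchanged, without rescaling, offset or low-value filter. Of 12488 probe sets 66 controls were left out. Gene symbols come from the platform annotation: 10833 probe sets carry 1 symbol, 396 several and 1193 none, and 10817 symbols (30 of 30 members) matched RefSeq.

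Tests used R 4.3.3 and limma 3.58.1: lmFit with time and genotype as terms, eBayes (3 residual degrees of freedom, prior 7.24), two-sided, with Benjamini-Hochberg adjustment over 12422 probe sets within a contrast. The departure at 14 h came from a fit with an interaction (2 residual degrees of freedom, prior 8.20). The median standard error was 0.13 for time, 0.09 for genotype and 0.21 for the departure. P-values measure only the spread among single arrays, which may be technical, and a genotype difference in the response to hCG enters that spread. The number of arrays limits the precision.

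The 5 largest called rises and falls of each contrast with the same direction in both genotypes, plus Srebf1, Insig1, Scarb1 and Fasn, were to be given in full; other members are given as values. Of the neighbouring lists the 4 largest called changes per contrast are named, plus Star, Cyp11a1 and Abca1. The members and lists were chosen with earlier results of these data known. Alternatives were median centring, quantile normalization, leaving out the lowest 40% of probe sets, averaging probe sets, an intensity trend in the prior, only the 4 arrays of the times compared, and leaving out each array. The scripts were tested on simulated data. Promoter sequences are RefSeq's on GRCm38.p6; the sources used here name no build for the arrays.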

Additional observations from a re-analysis of the deposited data

Results flagged for a closer look

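For 6 members the change against 0 h went up in one genotype and down in the other, by at least 0.5 apart on the log2 scale. Each value rests on 1 array per genotype and time, and the difference between the genotypes was not tested. At 3 h Dhcr7 changed by 1.02 in WT and −0.08 in EP2KO. At 9 h Scarb1 changed by 0.71 in WT and −0.13 in EP2KO. At 14 h Hmgcs1 changed by 0.90 in WT and −0.25 in EP2KO, Fdps by 0.59 and −0.24, Sc5d by 0.90 and −0.23, and Dhcr7 by 0.61 and −0.42. Elovl1 went the other way at 14 h, with −0.26 in WT and 0.25 in EP2KO. All 7 comparisons use the 0 h arrays, on which Hmgcs1, Fdps, Sc5d, Dhcr7 and Scarb1 read higher in EP2KO by 0.86, 0.39, 0.33, 0.67 and 0.44.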

How the results depend on the processing

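No member that was called changed direction under any alternative. With each array left out in turn the number of members called ran from 6 to 19 at 3 h against 0 h (18 with all arrays), from 10 to 19 at 9 h (19), from 9 to 16 at 14 h (14), from 4 to 9 from 3 to 9 h (8) and from 12 to 18 from 9 to 14 h (16). The lowest counts came without WT at 0 h for the contrasts with 0 h, without WT at 9 h from 3 to 9 h, and without EP2KO at 9 h from 9 to 14 h. No member was called for genotype in 8 such fits or for the departure in 6; without either 14 h array the departure could not be fitted. Where a time is left with 1 array, that array is assumed to vary like the others. Over single members and alternatives, a call was kept in 198 of 250 cases at 3 h, 237 of 265 at 9 h, 179 of 195 at 14 h, 94 of 112 from 3 to 9 h and 208 of 224 from 9 to 14 h. Insig1 and Abcd2 lie in the lowest 40% of probe sets and were not tested in the fit without those. Animals could not be paired, because each group holds a single array, numbered 1, and no label ties the animals of one group to those of another. The genotype comparison paired arrays only by time, through the time term. Detection calls were not used here, so signal near background limits what the low members show.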
